A study of Mus musculus with 18 samples.

Results

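The genes Dppa2, Dppa3, Dppa4, Dppa5a, Tcl1, Zfp42, Fbxo15, Utf1, Tdgf1 and L1td1 are all used as markers of the mouse embryonic stem cell (ESC) state. They were chosen by symbol, with no measured value in the rule, and are 10 of the 53672 genes in the count tables. All 10 had enough reads to enter the test, in which 18791 genes were compared.

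RNA-seq was performed on E14TG2a cells, a mouse ESC line, in which both alleles of Hdac1 and of Hdac2 can be deleted by adding 4-hydroxytamoxifen (OHT). HDAC1 and HDAC2 are histone deacetylases that work within multiprotein corepressor complexes. Each of 3 lines stably carried an HDAC1-Flag transgene that remains after the deletion: wild type (HDAC1-WT), HDAC1-E63R or HDAC1-Y48E, the mutants being single residue changes on the surface through which partner proteins bind. Every line was sequenced untreated and 5 days after 1 µM OHT was first given, with 3 libraries in each of the 6 groups and 18 in all. The labels give the whole 5 days as treatment, whereas the methods of the study describe a shorter exposure to OHT followed by further culture. The cells grew on gelatine in serum with leukemia inhibitory factor (LIF). Untreated cells of all 3 lines therefore had both the endogenous deacetylases and the transgene, and OHT-treated cells were meant to have the transgene alone. There is 1 line per transgene, so the mutation and any other difference between the lines cannot be told apart. Whether a line derives from 1 clone is not given in the sources used here. The labels do not say that replicates came from separate cultures, so p-values measure the spread between these libraries.

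The pluripotent state is held by a small network of transcription factors that includes OCT4, SOX2 and NANOG, and the 10 genes described here act around that network rather than at its centre. DPPA2 and DPPA4 are SAP-domain chromatin proteins that act as a pair and are known for activating genes of the early embryo. DPPA3 (Stella) protects the maternal genome from demethylation and is also a germ cell marker, and DPPA5A is a KH-domain RNA-binding protein. TCL1 is a co-activator of AKT, TDGF1 (Cripto) is a co-receptor for NODAL, and UTF1 is a chromatin-bound protein of pluripotent cells. ZFP42 (REX1) is the zinc finger protein used as a reporter of naive ESCs, FBXO15 is an F-box protein and a classical OCT4 target, and L1TD1 is an RNA-binding protein derived from a LINE-1 element. Histone deacetylases are known both to silence genes and to be needed for the expression of many ESC genes.

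The promoters of the 3 members that fell most clearly in HDAC1-Y48E cells and had an entry in the promoter table are shown with that of Zfp42. Zfp42 fell less there (log2 change -0.37). The promoter of L1td1, which changed by 0.05 there, is not printed. No link between promoter sequence and expression was tested. Promoter sequence (RefSeq, build GRCm38.p6) matched 5 of the 10 members, namely Tcl1, Zfp42, Utf1, Tdgf1 and L1td1. The 250 bases before the RefSeq start, which at some genes differs from the gene boundary of the annotation used for positions, are given 5′ to 3′ on the strand of the gene. Capitals mark the GC box GGGCGG, the letters bound by SP and KLF factors, and the octamer ATTTGCAT, the letters bound by POU factors such as OCT4, on either strand.
Tcl1, chr12:105222738-105222987, minus strand: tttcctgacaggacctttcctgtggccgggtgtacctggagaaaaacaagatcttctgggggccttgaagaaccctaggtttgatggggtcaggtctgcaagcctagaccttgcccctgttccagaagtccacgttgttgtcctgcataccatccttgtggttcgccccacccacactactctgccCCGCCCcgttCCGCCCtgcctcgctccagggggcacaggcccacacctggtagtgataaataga
Tdgf1, chr9:110946159-110946408, minus strand: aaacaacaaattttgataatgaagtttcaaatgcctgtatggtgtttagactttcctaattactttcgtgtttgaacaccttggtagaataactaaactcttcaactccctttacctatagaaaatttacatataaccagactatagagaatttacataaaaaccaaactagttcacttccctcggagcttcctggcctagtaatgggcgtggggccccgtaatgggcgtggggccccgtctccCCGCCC
Utf1, chr7:139943606-139943855, plus strand: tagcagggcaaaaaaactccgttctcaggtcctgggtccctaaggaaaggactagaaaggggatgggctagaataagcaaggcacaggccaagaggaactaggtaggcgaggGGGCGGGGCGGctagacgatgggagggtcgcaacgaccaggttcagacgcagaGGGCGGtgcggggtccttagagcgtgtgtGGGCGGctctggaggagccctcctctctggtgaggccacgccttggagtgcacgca
Zfp42, chr8:43307010-43307259, minus strand: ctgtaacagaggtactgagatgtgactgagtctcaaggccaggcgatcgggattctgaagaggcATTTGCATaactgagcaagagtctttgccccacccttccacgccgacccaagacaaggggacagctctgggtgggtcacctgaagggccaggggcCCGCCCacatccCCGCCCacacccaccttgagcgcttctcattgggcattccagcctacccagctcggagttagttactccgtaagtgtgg
The GC box occurred 4 times at Utf1, where a pair of matches overlapped, 2 times at Tcl1, 2 times at Zfp42, once at Tdgf1 and 0 times at L1td1, and 35.7% of 32851 mouse promoters of 300 bases (250 before and 50 after the start) held it. The octamer was found at Zfp42 alone of these 5, starting 186 bases before the annotated start, and 1.74% of all promoters held it. An ESRRB motif (TCAAGGTCA, in 0.423% of promoters) and a SOX motif (CATTGT, in 12.6%) were searched on both strands too and were not in these windows. GC content over the 300 bases was 41.7% at Tdgf1 and between 56.7% and 62.0% at the other 4, and CpG dinucleotides numbered 7 at Tdgf1, 11 at Tcl1, 11 at Zfp42, 14 at L1td1 and 17 at Utf1, with a median of 7 over all promoters.

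Depth was similar across the libraries, with 9019615 to 11454638 counts on genes. A floor of 3 counts corresponded to between 0.262 and 0.333 CPM (the count scaled to a common library size), and it covers counting error only. The lowest count of any member in any library was 50 (Dppa3). The ESC markers Pou5f1, Sox2, Nanog, Sall4, Fgf4 and Lin28a all averaged at least 1 CPM in all 6 groups. Hdac1 reads were 201 to 210 CPM in untreated HDAC1-WT cells and 169 to 179 CPM with OHT, and between 94.9 and 131 CPM in the mutant lines, where OHT did not lower them (log2 change 0.22 in HDAC1-E63R and 0.14 in HDAC1-Y48E). Hdac2 changed by -0.66 (SE 0.11, adjusted p = 0.0125), -0.21 (adjusted p = 0.194) and -0.07 (adjusted p = 0.649) in HDAC1-WT, HDAC1-E63R and HDAC1-Y48E cells. These total counts therefore do not show the deletion by themselves, and reads of the transgene may be counted with the endogenous gene.

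One library stood apart before any result is read. Untreated HDAC1-E63R replicate 3 differed from the other 2 of its group by a chi-square of 60.4 to 67.1 per degree of freedom over genes, against 3.38 to 7.42 for the other 16 replicate pairs, and its TMM factor was 0.814. It was the highest of its group for 8 of the 10 members, by 2.25 times the mean of the other 2 for Dppa5a and 2.09 times for Dppa3. Results that rest on untreated HDAC1-E63R cells are given with and without it.

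In the HDAC1-WT line, 0 of 10 members passed an adjusted p of 0.01 after OHT in edgeR's quasi-likelihood test over the 18 libraries, against 0.0585% of all genes tested (0.0373% higher and 0.0213% lower). DESeq2 also gave 0, and 4 members had an unadjusted p under 0.05 in the edgeR test, beside 1852 of the 18791 genes tested. In HDAC1-E63R cells 5 members passed, with Dppa2 and L1td1 higher and Dppa5a, Tcl1 and Utf1 lower, beside 14.3% of all genes (7.49% higher and 6.82% lower). In HDAC1-Y48E cells 7 passed, with Dppa3 and Fbxo15 higher and Dppa5a, Tcl1, Tdgf1, Utf1 and Zfp42 lower, beside 30.9% of all genes (16.2% higher and 14.7% lower). With a change over 2-fold also required, 0, 0 and 5 members passed in the HDAC1-WT, HDAC1-E63R and HDAC1-Y48E lines, beside 0.0532%, 5.91% and 16.6% of all genes. Libraries of the 2 groups did not overlap for 3 members in HDAC1-WT, 6 in HDAC1-E63R and 7 in HDAC1-Y48E, beside 19.2%, 36.9% and 59.4% of all genes. The median log2 change of the 10 was 0.21, -0.18 and -0.23 in HDAC1-WT, HDAC1-E63R and HDAC1-Y48E cells, and that of all genes was 0.00, 0.03 and 0.05. The members split in direction within each mutant line, so the median describes them poorly.

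**Figure D1:**
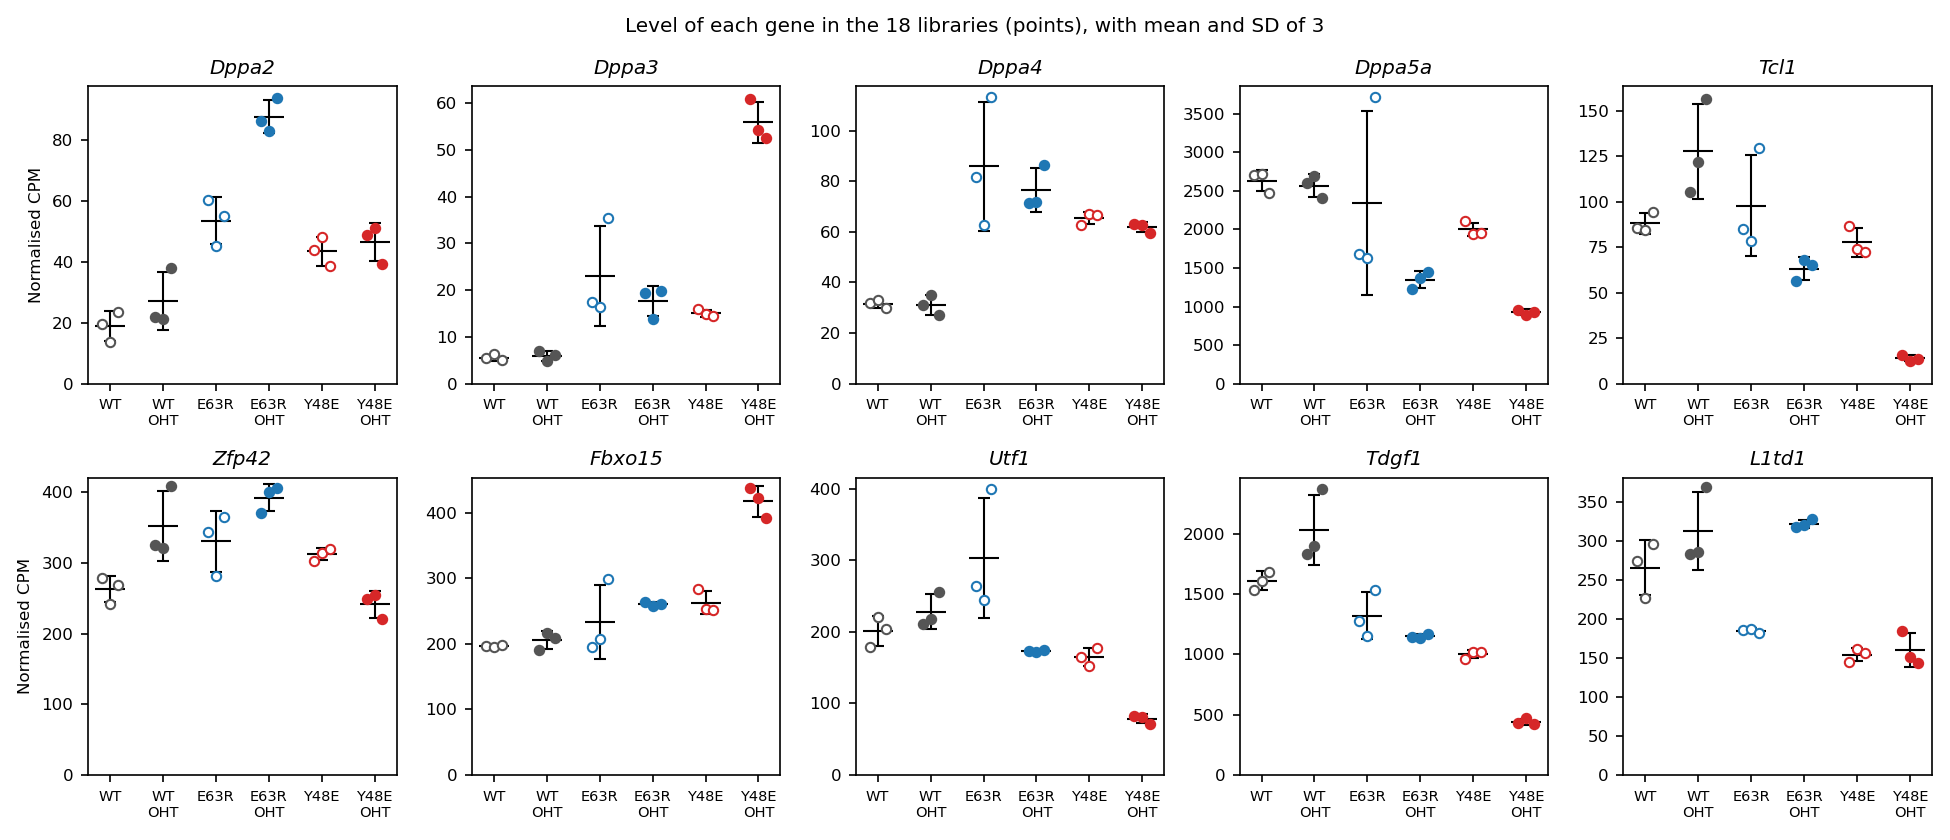
Normalised CPM (y axis, linear from 0, with its own range in each panel) of the 10 genes in the 6 groups (x axis). Points are libraries (open untreated, filled OHT), and the long dash and bars give the mean and SD of 3; Tcl1 sits at 12.3 to 15.6 CPM and Dppa3 at 52.5 to 60.9 CPM in OHT-treated HDAC1-Y48E cells, apart from every other group.

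The HDAC1-WT result depended on which libraries set the spread. When only its 6 libraries were fitted, 117 genes passed (11 in the fit over all libraries), among them 3 members, all higher with OHT: Tcl1 (log2 change 0.54, adjusted p = 0.00311), Zfp42 (0.42, adjusted p = 0.00271) and Tdgf1 (0.34, adjusted p = 0.00389). OHT-treated HDAC1-WT replicate 3 was the highest of its group for 6 of the 10 members, among them these 3. In HDAC1-E63R cells the count was 1 (L1td1) when only its 6 libraries were fitted, where 453 genes passed in all (2688 in the fit over all libraries). It was 6 without untreated replicate 3, where 18.5% of all genes passed. Leaving out any one of the OHT-treated HDAC1-E63R libraries left 2 members (L1td1 and Utf1) and 1658 to 1760 genes in all.

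Dppa2 and Dppa4 were higher in both mutant lines than in the HDAC1-WT line whether or not OHT was given. The genes lie side by side on chromosome 16 of mm10, Dppa4 at chr16:48283733-48294237 and Dppa2 at chr16:48303908-48319723, both on the plus strand and 9670 bases apart. Dppa2 was 19.4, 13.6 and 23.5 CPM in untreated HDAC1-WT cells and 21.8, 21.3 and 38.1 CPM with OHT. It was 60.4, 45.3 and 55.0 CPM in untreated HDAC1-E63R cells and 86.4, 83.0 and 93.8 CPM with OHT. In HDAC1-Y48E cells it was 43.9, 48.1 and 38.6 CPM without OHT and 48.8, 51.2 and 39.4 CPM with OHT. All 12 libraries of the mutant lines were thus above the 6 of the HDAC1-WT line, and OHT-treated HDAC1-E63R cells were above all other groups. Dppa2 was 2.85-fold higher in untreated HDAC1-E63R than in untreated HDAC1-WT cells (log2 change 1.51, SE 0.20, adjusted p = 9.04e-06) and 2.31-fold higher in untreated HDAC1-Y48E cells (1.21, SE 0.21, adjusted p = 0.000163). Among OHT-treated cells it was 3.24-fold higher in HDAC1-E63R (1.70, SE 0.20, adjusted p = 1.05e-06) and 1.72-fold higher in HDAC1-Y48E (0.78, SE 0.20, adjusted p = 0.00298). The HDAC1-Y48E value lost its call without HDAC1-WT OHT replicate 1 or 2 or HDAC1-Y48E OHT replicate 1 or 2 (log2 change 0.63 to 0.74, adjusted p up to 0.0270).

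OHT itself raised Dppa2 in HDAC1-E63R cells (1.64-fold, log2 change 0.71, SE 0.19, adjusted p = 0.0096). This was close to the threshold: the call was lost when any 1 of the other 5 libraries of that line was left out (log2 change 0.60 to 0.81, adjusted p up to 0.0406), and held without untreated replicate 3 (0.72, adjusted p = 0.00087). In HDAC1-WT cells the change was 0.53 (SE 0.21, adjusted p = 0.365), where replicate 3 alone was above the untreated range, and in HDAC1-Y48E cells it was 0.10 (SE 0.20, adjusted p = 0.724).

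Dppa4 was 31.7, 32.9 and 29.9 CPM in untreated HDAC1-WT cells and 30.9, 35.1 and 27.3 CPM with OHT. In HDAC1-E63R cells it was 81.9, 62.9 and 113 CPM without OHT and 71.3, 72.0 and 86.6 CPM with OHT, and in HDAC1-Y48E cells 62.8, 67.1 and 66.7 CPM without and 63.3, 62.8 and 59.6 CPM with OHT. The lowest mutant library was above the highest HDAC1-WT library. Untreated cells differed from HDAC1-WT by 1.45 in HDAC1-E63R (SE 0.16, adjusted p = 5.5e-07) and by 1.06 in HDAC1-Y48E (SE 0.16, adjusted p = 3.93e-05) on the log2 scale. Without untreated HDAC1-E63R replicate 3 the first value was 1.21 (adjusted p = 4.3e-11). Dppa4 passed in none of the 3 OHT comparisons, with log2 changes of -0.02 (SE 0.16), -0.17 (SE 0.15) and -0.08 (SE 0.15) in HDAC1-WT, HDAC1-E63R and HDAC1-Y48E cells.

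Per kilobase of exon the ratio of Dppa4 to Dppa2 was 1.28 ± 0.072 (SD, n = 3) in OHT-treated HDAC1-E63R cells. Its group mean in the other 5 groups lay between 1.86 (HDAC1-WT with OHT) and 2.61 (untreated HDAC1-WT). Single libraries ran from 1.21 to 1.36 in OHT-treated HDAC1-E63R cells and from 1.06 to 2.42 in OHT-treated HDAC1-WT cells, so these ranges overlapped, and the ratio was not tested.

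Dppa3, at chr6:122626410-122630272 on the plus strand, showed the largest increase of the members in HDAC1-Y48E cells. It was 15.9, 14.8 and 14.4 CPM without OHT and 60.9, 54.4 and 52.5 CPM with OHT, a 3.71-fold rise (log2 change 1.89, SE 0.23, adjusted p = 8.16e-07). In HDAC1-WT cells it was 5.40, 6.25 and 5.00 CPM without OHT and 6.93, 4.72 and 6.18 CPM with OHT (0.10, SE 0.26, adjusted p = 0.961). The HDAC1-E63R values were 17.4, 16.5 and 35.5 CPM without OHT and 19.3, 13.9 and 19.8 CPM with OHT (-0.38, SE 0.23, adjusted p = 0.231, and 0.06 without untreated replicate 3). OHT-treated HDAC1-Y48E libraries were above every other library, and those of HDAC1-WT cells below every other.

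The gene was already higher in untreated mutant cells. Untreated HDAC1-E63R and HDAC1-Y48E cells were above untreated HDAC1-WT cells by 2.05 (SE 0.25, adjusted p = 2.26e-06) and 1.44 (SE 0.25, adjusted p = 0.000221) on the log2 scale. Without untreated HDAC1-E63R replicate 3 the first value was 1.61 (adjusted p = 1.42e-08). Among OHT-treated cells Dppa3 was 9.41-fold higher in HDAC1-Y48E than in HDAC1-WT (3.23, SE 0.25, adjusted p = 6.19e-10) and 2.97-fold higher in HDAC1-E63R (1.57, SE 0.25, adjusted p = 4e-05). In the order of group means, HDAC1-WT untreated and OHT overlapped at the bottom, untreated HDAC1-Y48E and both HDAC1-E63R groups overlapped in the middle, and OHT-treated HDAC1-Y48E cells stood alone at the top.

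Dppa5a moved the other way from Dppa3 with OHT in HDAC1-Y48E cells. It lies at chr9:78367052-78368177 on the minus strand and had the highest level per kilobase of the 10 in untreated HDAC1-WT cells (4256 ± 217 CPM per kilobase, SD, n = 3), while Dppa3 had the lowest (6.22 ± 0.718). Its level was 2707, 2716 and 2480 CPM in untreated HDAC1-WT cells and 2599, 2699 and 2406 CPM with OHT. In HDAC1-Y48E cells it was 2104, 1938 and 1958 CPM without OHT and 961, 888 and 932 CPM with OHT, a change to 0.463 of the untreated level (log2 change -1.11, SE 0.20, adjusted p = 8.93e-05). The HDAC1-E63R line had 1684, 1623 and 3721 CPM without OHT and 1227, 1372 and 1447 CPM with OHT. Every OHT-treated library of a mutant line was below every untreated library of that line.

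The size of the HDAC1-E63R decrease rested on 1 library. Dppa5a fell by 0.80 on the log2 scale (SE 0.19, adjusted p = 0.00441) with all libraries and by 0.30 (adjusted p = 8.54e-05) without untreated replicate 3. The first value lost its call without any one of the 3 OHT-treated HDAC1-E63R libraries (log2 change -0.85 to -0.73, adjusted p up to 0.0276), and when only the 6 libraries of the line were fitted (-0.80, adjusted p = 0.127). Among OHT-treated cells Dppa5a was lower than in HDAC1-WT in HDAC1-E63R (-0.93, SE 0.19, adjusted p = 0.00088) and in HDAC1-Y48E (-1.47, SE 0.20, adjusted p = 2.66e-06). Untreated HDAC1-E63R cells did not pass against HDAC1-WT (-0.17, adjusted p = 0.557), but without replicate 3 they did (-0.67, adjusted p = 1.61e-12). Untreated HDAC1-Y48E cells were at -0.40 (SE 0.19, adjusted p = 0.158), with libraries that did not overlap those of HDAC1-WT, and passed when only those 6 libraries were fitted (-0.40, adjusted p = 1.39e-07).

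**Figure D2:**
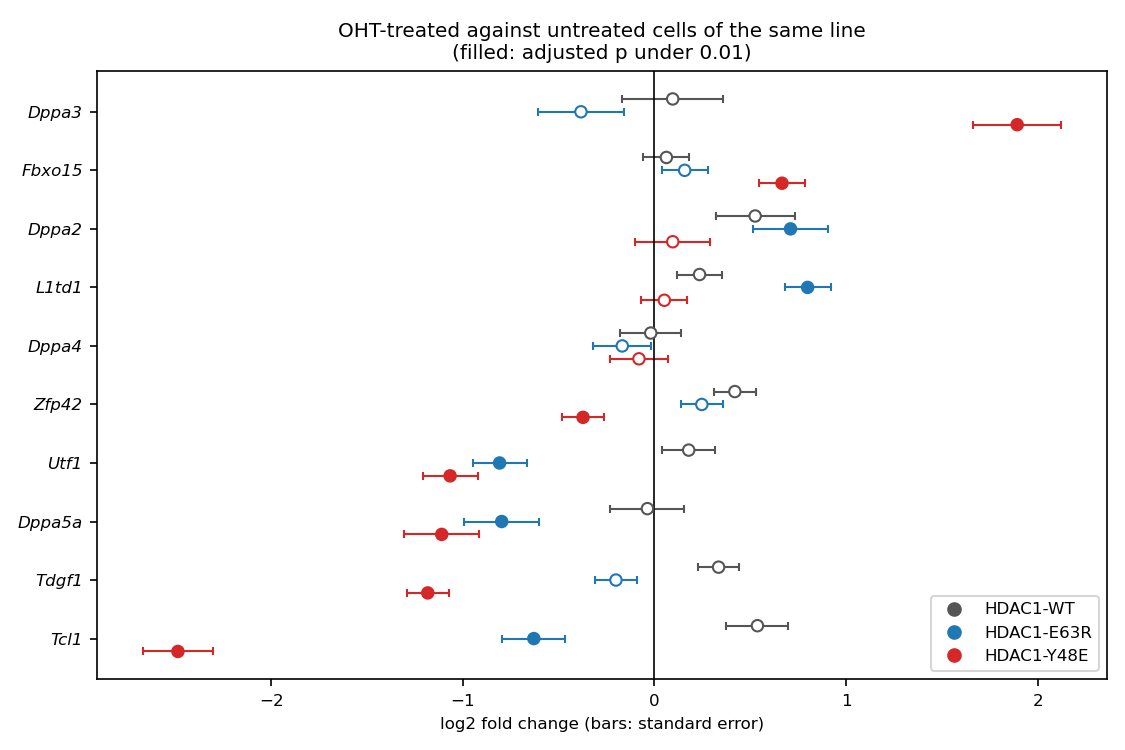
log2 fold change with OHT in each line (x axis, bars give the standard error, 3 libraries against 3) for the 10 genes (y axis, ordered by the HDAC1-Y48E value). Filled points passed an adjusted p of 0.01; the HDAC1-WT points are all open, between -0.04 and 0.54, and the HDAC1-Y48E points run from -2.49 (Tcl1) to 1.89 (Dppa3).

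Tcl1, Tdgf1 and Utf1 fell in OHT-treated HDAC1-Y48E cells, and Tcl1 and Utf1 also in HDAC1-E63R cells. Because the samples are bulk RNA, fewer cells that express a gene and less RNA per cell cannot be told apart.

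Tcl1 (chr12:105216750-105222793, minus strand), whose promoter is printed above, showed the largest decrease. It was 86.9, 73.9 and 72.5 CPM in untreated HDAC1-Y48E cells and 15.6, 12.3 and 13.8 CPM with OHT, a change to 0.178 of the untreated level (log2 change -2.49, SE 0.18, adjusted p = 4.82e-10). That decrease was larger than those of all but 1.15% of the genes tested. In HDAC1-E63R cells it was 85.2, 78.7 and 130 CPM without OHT and 56.5, 68.0 and 65.4 CPM with OHT (-0.63, SE 0.16, adjusted p = 0.00709). In HDAC1-WT cells it was 85.4, 84.4 and 94.6 CPM without OHT and 105, 122 and 157 CPM with OHT (0.54, SE 0.16, adjusted p = 0.193). The libraries did not overlap in any of the 3 lines, being higher with OHT in HDAC1-WT and lower in the mutants.

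The HDAC1-E63R value for Tcl1 lost its call without untreated replicate 3 (-0.38, adjusted p = 0.0144) or without any one of the OHT-treated libraries of that line (log2 change down to -0.68, adjusted p up to 0.0452). Untreated mutant cells were at 0.15 (SE 0.16, adjusted p = 0.529, HDAC1-E63R) and -0.18 (SE 0.16, adjusted p = 0.491, HDAC1-Y48E) against untreated HDAC1-WT cells. Among OHT-treated cells Tcl1 was lower than in HDAC1-WT in both mutants, at -1.01 (SE 0.16, adjusted p = 5.88e-05) in HDAC1-E63R and -3.20 (SE 0.18, adjusted p = 5.63e-12) in HDAC1-Y48E. The group means ran from OHT-treated HDAC1-Y48E, through OHT-treated HDAC1-E63R, to the untreated groups of the 3 lines, whose ranges overlapped, and OHT-treated HDAC1-WT.

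Tdgf1 (chr9:110939603-110946158, minus strand) was 964, 1023 and 1019 CPM in untreated HDAC1-Y48E cells and 434, 471 and 419 CPM with OHT (0.441 of the untreated level, log2 change -1.18, SE 0.11, adjusted p = 1.73e-08). In HDAC1-WT cells it was 1536, 1613 and 1688 CPM without OHT and 1833, 1897 and 2370 CPM with OHT (0.33, SE 0.11, adjusted p = 0.238). In HDAC1-E63R cells it was 1280, 1152 and 1533 CPM without OHT and 1146, 1136 and 1168 CPM with OHT (-0.20, SE 0.11, adjusted p = 0.184). All 6 HDAC1-Y48E libraries were below every other library, also before OHT. Untreated HDAC1-Y48E cells were 0.621 of the untreated HDAC1-WT level (-0.69, SE 0.11, adjusted p = 7.35e-05), and OHT-treated ones 0.217 of the OHT-treated level (-2.20, SE 0.11, adjusted p = 9.33e-13). OHT-treated HDAC1-E63R cells were at -0.82 against OHT-treated HDAC1-WT (SE 0.11, adjusted p = 4.66e-06). Untreated HDAC1-E63R cells were at -0.29 (adjusted p = 0.0519), and at -0.40 (adjusted p = 9.81e-06) without replicate 3.

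Utf1 (chr7:139943789-139945112, plus strand) fell with OHT in both mutant lines. It was 164, 152 and 177 CPM in untreated HDAC1-Y48E cells and 82.9, 81.3 and 71.5 CPM with OHT (0.478 of the untreated level, log2 change -1.07, SE 0.14, adjusted p = 3.31e-06). HDAC1-E63R cells had 264, 245 and 399 CPM without OHT and 173, 172 and 174 CPM with OHT (-0.81, SE 0.14, adjusted p = 0.000232, and -0.56, adjusted p = 1.4e-06, without untreated replicate 3). In HDAC1-WT cells it was 179, 221 and 204 CPM without OHT and 210, 218 and 256 CPM with OHT (0.18, SE 0.14, adjusted p = 0.758). OHT-treated HDAC1-Y48E libraries lay below all others.

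In untreated cells Utf1 was higher in HDAC1-E63R than in HDAC1-WT (0.59, SE 0.14, adjusted p = 0.0031, and 0.34, adjusted p = 0.00162, without HDAC1-E63R replicate 3). That call was lost without untreated HDAC1-WT replicate 1 or 3 (log2 change 0.51 to 0.61, adjusted p up to 0.0251). Untreated HDAC1-Y48E cells were at -0.29 (adjusted p = 0.153). Among OHT-treated cells the values against HDAC1-WT were -0.40 (adjusted p = 0.0353) in HDAC1-E63R and -1.54 (SE 0.14, adjusted p = 1.49e-08) in HDAC1-Y48E.

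Zfp42, Fbxo15 and L1td1 showed 3 different patterns. Zfp42 (chr8:43295063-43306980, minus strand), the gene with the octamer in its promoter, varied least, its highest group mean being 1.63 times its lowest. It was 278, 242 and 269 CPM in untreated HDAC1-WT cells and 325, 321 and 409 CPM with OHT (0.42, SE 0.11, adjusted p = 0.127). HDAC1-E63R cells had 344, 282 and 365 CPM without OHT and 370, 401 and 405 CPM with OHT (0.25, SE 0.11, adjusted p = 0.109, and 0.32, adjusted p = 0.00313, without untreated replicate 3). In HDAC1-Y48E cells it was 303, 314 and 319 CPM without OHT and 249, 255 and 220 CPM with OHT. That fall was 0.37 on the log2 scale (-0.37, SE 0.11, adjusted p = 0.00961), and the call was lost without any one of the 6 libraries (log2 change -0.41 to -0.31, adjusted p up to 0.0595). The OHT-treated and untreated libraries did not overlap in any line. Against OHT-treated HDAC1-WT cells, OHT-treated HDAC1-Y48E cells were at -0.54 (SE 0.11, adjusted p = 0.000395).

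Fbxo15 (chr18:84934782-84981473, plus strand) rose in HDAC1-Y48E cells, where Zfp42 fell. It was 283, 254 and 252 CPM without OHT and 438, 422 and 392 CPM with OHT (1.59-fold, log2 change 0.67, SE 0.12, adjusted p = 0.000115), and those OHT-treated libraries were above all others. It was 197, 195 and 199 CPM in untreated HDAC1-WT cells and 191, 217 and 209 CPM with OHT. The HDAC1-E63R libraries were at 195, 207 and 299 CPM without OHT and 264, 258 and 260 CPM with OHT (0.16, SE 0.12, adjusted p = 0.365). With the untreated library at 299 CPM (replicate 3) left out, the OHT value in that line was 0.37 (adjusted p = 7.73e-05). OHT-treated HDAC1-Y48E cells were 2.03-fold above OHT-treated HDAC1-WT cells (1.02, SE 0.12, adjusted p = 4.53e-07).

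L1td1 (chr4:98726734-98738480, plus strand) rose with OHT in HDAC1-E63R cells. It was 186, 187 and 181 CPM without OHT and 317, 320 and 328 CPM with OHT (1.74-fold, log2 change 0.80, SE 0.12, adjusted p = 4.38e-05), a value that was 0.78 without untreated replicate 3. In HDAC1-WT cells it was 274, 226 and 296 CPM without OHT and 283, 285 and 370 CPM with OHT (0.24, SE 0.12, adjusted p = 0.529). In HDAC1-Y48E cells it was 145, 162 and 156 CPM without OHT and 185, 151 and 143 CPM with OHT (0.05, SE 0.12, adjusted p = 0.756). Before OHT both mutants were below HDAC1-WT, at -0.52 in HDAC1-E63R (SE 0.12, adjusted p = 0.00213) and -0.78 in HDAC1-Y48E (SE 0.12, adjusted p = 5.17e-05). With OHT, HDAC1-E63R was at 0.04 against HDAC1-WT (adjusted p = 0.838) and HDAC1-Y48E at -0.97 (SE 0.12, adjusted p = 8.97e-07). The untreated HDAC1-E63R call was lost without untreated HDAC1-WT replicate 1 or 3 (log2 change -0.50 to -0.42, adjusted p up to 0.0243).

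Seen across lines, the untreated comparison asks whether a mutant transgene beside the endogenous enzymes goes with a different level. Total Hdac1 reads also differed between untreated lines, by -0.96 (adjusted p = 8.81e-08) in HDAC1-E63R and -1.02 (adjusted p = 5.6e-08) in HDAC1-Y48E against HDAC1-WT. That difference and the mutation cannot be told apart here. Of the 10 members, 5 passed in untreated HDAC1-E63R against HDAC1-WT cells (4 higher, 1 lower, beside 16.9% of all genes, 9.04% higher and 7.83% lower) and 5 in untreated HDAC1-Y48E (3 higher, 2 lower, beside 12.2%, 6.42% higher and 5.74% lower). Dppa2, Dppa3 and Dppa4 were higher in both and L1td1 was lower in both. Those 3 were also the members past 2-fold in each mutant, beside 7.65% and 5.57% of all genes. Among OHT-treated cells 6 passed in HDAC1-E63R (3 higher, 3 lower, beside 19.3%, 10.5% higher and 8.79% lower) and all 10 in HDAC1-Y48E (4 higher, 6 lower, beside 31.8%, 16.6% higher and 15.2% lower). Of these, 4 and 6 were past 2-fold, beside 9.36% and 18.2%. Libraries did not overlap for 7, 9, 8 and 10 members in these comparisons in turn, beside 35.2%, 40.2%, 50.5% and 59.8% of all genes. The untreated and the OHT-treated comparisons of both mutants share their HDAC1-WT libraries. The count for untreated HDAC1-E63R was 3 without untreated HDAC1-WT replicate 1 or 3 and 7 without untreated HDAC1-E63R replicate 3. The count over all genes moved the same way, from 3170 that passed to 2268 and 2295 in the first 2 of these fits and to 4006 (20.5%) in the last. When only the 6 libraries compared were fitted, 3 members and 635 genes passed for untreated HDAC1-E63R, and 9 members and 3817 genes (2285 in the fit over all libraries) for untreated HDAC1-Y48E.

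**Figure D3:**
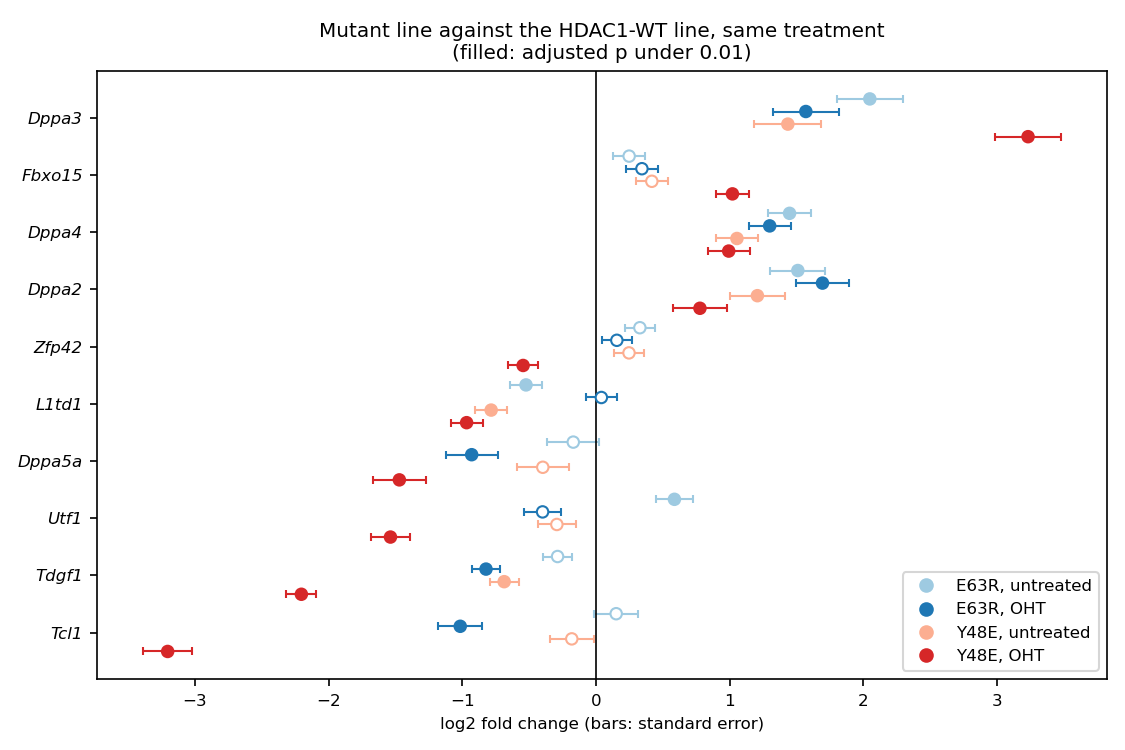
log2 fold change of each mutant line against the HDAC1-WT line under the same treatment (x axis, bars give the standard error) for the 10 genes (y axis). Filled points passed an adjusted p of 0.01; Dppa2, Dppa3 and Dppa4 lie right of 0 in all 4 comparisons, and Tcl1 lies near 0 in untreated cells and at -3.20 in OHT-treated HDAC1-Y48E cells.

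The response to OHT was also compared between lines by its own test, the difference of the log2 changes. Against HDAC1-WT, 2 members differed in HDAC1-E63R (Tcl1, -1.17, SE 0.23, adjusted p = 0.00354; Utf1, -0.99, SE 0.20, adjusted p = 0.00398), beside 2.45% of all genes (1.44% higher and 1.01% lower, and 1.68% also past 2-fold, as Tcl1 was). Both calls were lost without untreated HDAC1-WT replicate 1, OHT-treated HDAC1-WT replicate 3 or OHT-treated HDAC1-E63R replicate 1. Tcl1 was also lost without untreated HDAC1-WT replicate 2, and Utf1 without untreated HDAC1-WT replicate 3 or OHT-treated HDAC1-E63R replicate 2 or 3 (adjusted p up to 0.0152 and 0.0170). The values in those fits were -1.15 to -0.99 for Tcl1 and -1.01 to -0.89 for Utf1. Without untreated HDAC1-E63R replicate 3 the count was 4, beside 6.53% of all genes in that fit, namely Tcl1 (-0.92), Utf1 (-0.74), Tdgf1 (-0.42) and L1td1 (0.55).

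In HDAC1-Y48E, 6 members differed from HDAC1-WT in their response, beside 12.6% of all genes (5.84% higher, 6.77% lower), and 5 of them by over 2-fold, beside 8.62%. Dppa3 was more positive (1.80, SE 0.35, adjusted p = 0.000665), and Tcl1 (-3.02, SE 0.24, adjusted p = 8.78e-09), Tdgf1 (-1.52, SE 0.15, adjusted p = 2.62e-07), Utf1 (-1.24, SE 0.20, adjusted p = 9.36e-05), Dppa5a (-1.07, SE 0.27, adjusted p = 0.00666) and Zfp42 (-0.79, SE 0.16, adjusted p = 0.000847) were more negative. The Dppa5a call was lost without any one of the 12 libraries (log2 value -1.12 to -1.04, adjusted p up to 0.0186). It was also lost in DESeq2 and with relative log expression scaling (adjusted p up to 0.0240 over all of these settings). The 2 mutants differed for 3 members, beside 1.95% of all genes (0.415% higher, 1.53% lower), and Dppa3 and Tcl1 by over 2-fold, beside 1.31%: Dppa3 (2.28, SE 0.32, adjusted p = 0.000117), Tcl1 (-1.86, SE 0.24, adjusted p = 5.33e-05) and Tdgf1 (-0.98, SE 0.15, adjusted p = 0.000333), each as HDAC1-Y48E minus HDAC1-E63R. Without untreated HDAC1-E63R replicate 3, Dppa3 was at 1.83, Tcl1 at -2.11 and Tdgf1 at -1.10. The count was then 7, with Dppa5a (-0.82), L1td1 (-0.74), Zfp42 (-0.70) and Utf1 (-0.51) added, beside 7.45% of all genes in that fit. Without OHT-treated HDAC1-Y48E replicate 1 it was 4, with L1td1 added, while 261 genes passed (366 in the fit over all libraries). In the fit over all libraries no difference between lines passed for Dppa2, Dppa4, Fbxo15 or L1td1 in these 3 comparisons. Fbxo15 was at 0.60 (SE 0.17, adjusted p = 0.0129) in HDAC1-Y48E minus HDAC1-WT. L1td1 was at -0.75 (SE 0.17, adjusted p = 0.0106) in HDAC1-Y48E minus HDAC1-E63R.

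Other genes of the pluripotent state are given from lists chosen by function, and their counts with OHT stand beside 0.0585%, 14.3% and 30.9% of all genes in HDAC1-WT, HDAC1-E63R and HDAC1-Y48E. Of 14 core and naive pluripotency factors, 0 passed with OHT in HDAC1-WT, 2 were higher and 4 lower in HDAC1-E63R, and 0 were higher and 10 lower in HDAC1-Y48E. Their median log2 change was 0.12, -0.20 and -1.41 in these lines. Prdm14, a naive pluripotency and germ cell factor, went from 34.2 ± 4.19 to 3.46 ± 0.654 CPM (SD, n = 3) in HDAC1-Y48E cells (log2 change -3.30, SE 0.20, adjusted p = 1.77e-11), and Klf2 from 220 ± 13 to 39.7 ± 4.04 CPM (-2.47, SE 0.17, adjusted p = 1.81e-10). In HDAC1-E63R cells Klf2 (-1.11) and Prdm14 (-0.91) fell, while Klf5 (0.68) and Klf4 (0.55) rose. When untreated HDAC1-E63R replicate 3 was left out, 2 of the 14 rose and 7 fell in that line, beside 18.5% of all genes, and the Klf2 value was -0.77.

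Among 20 other ESC-enriched genes and family members, 13 were tested, and 0 passed in HDAC1-WT, 1 rose and 6 fell in HDAC1-E63R, and 1 rose and 10 fell in HDAC1-Y48E (median log2 change 0.04, -0.46 and -1.81). Fgf4, the ESC growth factor, fell from 365 ± 16.7 to 43.6 ± 2.92 CPM in HDAC1-Y48E cells (-3.06, SE 0.09, adjusted p = 9.78e-16) and from 303 ± 17.8 to 127 ± 3.94 CPM in HDAC1-E63R cells (-1.26, SE 0.09, adjusted p = 2.51e-09). Tdh, the threonine dehydrogenase of ESCs, fell in HDAC1-Y48E (-3.01) and Eras, an ESC-expressed RAS protein, in HDAC1-E63R (-1.07). Tex19.1, a germ cell and ESC gene, was the one that rose, by 1.48 in HDAC1-E63R and 1.44 in HDAC1-Y48E on the log2 scale. Without untreated replicate 3, 2 rose and 6 fell in HDAC1-E63R, with Eras at -0.68.

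Of 13 formative and primed epiblast genes tested, 0 passed in HDAC1-WT, 6 rose and 0 fell in HDAC1-E63R, and 5 rose and 1 fell in HDAC1-Y48E (median log2 change 0.08, 0.67 and 0.96). Under 3 counts a library on average were 1 of the 13 in untreated HDAC1-WT, 1 in OHT-treated HDAC1-WT and 1 in untreated HDAC1-Y48E cells. A fall from such a level could not be seen. Otx2, a transcription factor of the formative epiblast, went from 1.25 ± 0.590 to 7.04 ± 2.08 CPM in HDAC1-E63R cells (2.47, SE 0.36, adjusted p = 2.82e-05), where Dusp6 also rose (1.16). In HDAC1-Y48E cells Cldn6 (1.94), a tight junction gene, and Dnmt3a (1.81), a DNA methyltransferase, rose and Zic2 fell (-0.92). The HDAC1-E63R counts of 6 and 0 were equal without untreated replicate 3.

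Of 20 genes tested from the list of 2-cell stage genes and others tied to DPPA2 and DPPA4, 11 rose and 0 fell with OHT in HDAC1-E63R, and 10 rose and 1 fell in HDAC1-Y48E. In HDAC1-WT 0 passed, but 8 of the 20 averaged under 3 counts a library without OHT and 11 with OHT in that line. Those genes entered the test through the mutant groups, so no count against HDAC1-WT is given. In HDAC1-E63R 0 of the 20 were under 3 counts in either group, and in HDAC1-Y48E 1 was without OHT. Usp17le went from 5.17 ± 0.0246 to 35.0 ± 4.26 CPM in HDAC1-E63R cells (2.76, SE 0.26, adjusted p = 1.73e-07), where Zscan4f also rose (2.66), and Usp17lb from 9.44 ± 1.26 to 79.2 ± 5.72 CPM in HDAC1-Y48E cells (3.07, SE 0.30, adjusted p = 3.13e-08). Zscan4a fell in HDAC1-Y48E cells, from 40.9 ± 6.31 to 20.4 ± 0.728 CPM (adjusted p = 0.000175). Usp17l and Zscan4 genes are families of near-identical copies, so reads may be split among them. The HDAC1-E63R counts were again 11 and 0 when untreated replicate 3 was left out.

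Of 12 germline genes, 1 rose and 1 fell in HDAC1-WT cells with OHT, 2 rose and 2 fell in HDAC1-E63R (where 14.3% of all genes passed), and 5 rose and 3 fell in HDAC1-Y48E (30.9%). Tex101, a germ cell surface gene, rose in all 3 lines (2.95 in HDAC1-WT, 2.38 in HDAC1-E63R and 3.77 in HDAC1-Y48E), and Ddx4 fell in HDAC1-WT (-0.81) and HDAC1-E63R (-0.77). Stra8, the retinoic acid-responsive gene of meiotic entry, rose in HDAC1-E63R (1.51) and HDAC1-Y48E (2.51), and Sycp3 (-0.86 and -0.89) fell in both. Prdm1, a germ cell specification factor, fell in HDAC1-Y48E (-1.90). In HDAC1-E63R 2 germline genes rose and 2 fell also without its untreated replicate 3, and the Sycp3 value there was -0.50.

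**Figure D4:**
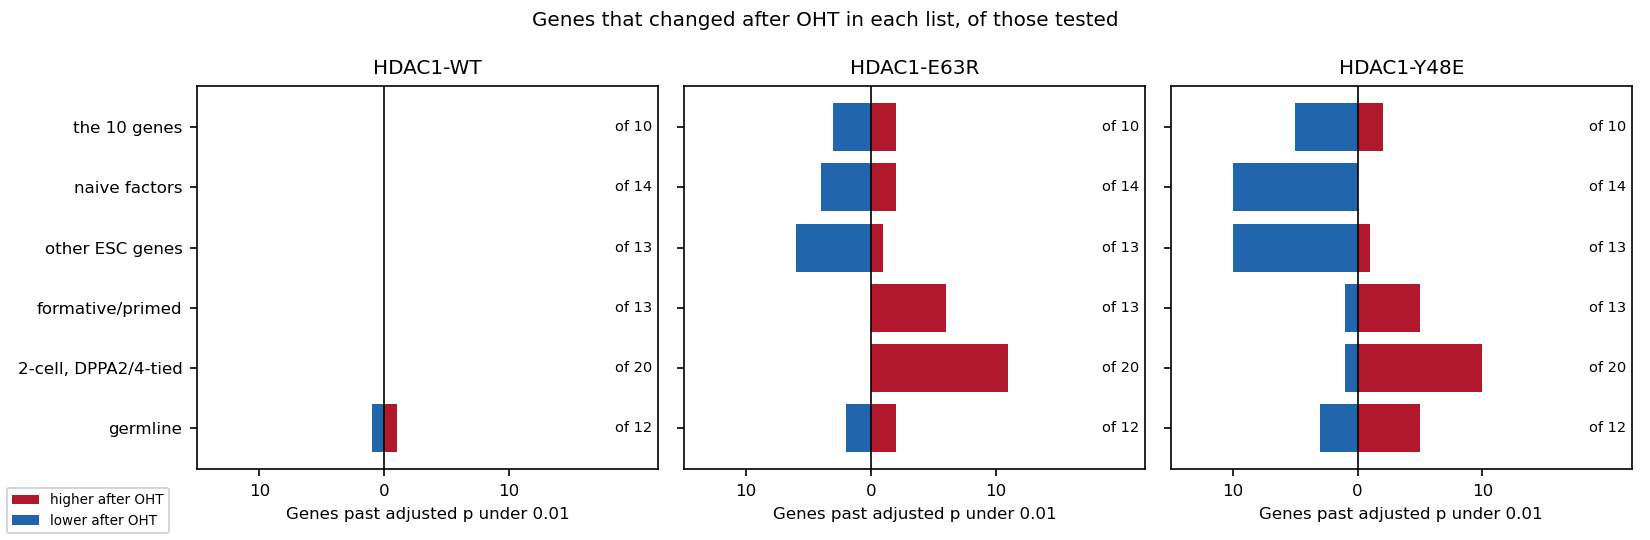
Number of genes past an adjusted p of 0.01 with OHT (x axis, higher to the right in red and lower to the left in blue) in each list (y axis), one panel per line, with the number tested at the right. In HDAC1-Y48E 10 of 14 naive factors were lower and 0 higher, and 10 of 20 genes of the list tied to DPPA2 and DPPA4 were higher and 1 lower.

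Markers of other cell types moved with OHT in the mutant lines. The summed level of 10 trophoblast markers was 261 to 283 CPM in untreated and 300 to 311 CPM in OHT-treated HDAC1-WT cells, 132 to 176 and 295 to 310 CPM in HDAC1-E63R, and 143 to 157 and 583 to 631 CPM in HDAC1-Y48E. Of the 9 tested, 0 passed in HDAC1-WT, 6 were higher and 1 lower in HDAC1-E63R, and 5 were higher and 0 lower in HDAC1-Y48E, beside 0.0585%, 14.3% and 30.9% of all genes. Without untreated replicate 3, which had the highest summed level of its group, 6 were higher and 0 lower in HDAC1-E63R. In HDAC1-Y48E cells the group means went from 41.8 to 449 CPM for Krt18, from 17.8 to 47.9 for Krt7, from 1.70 to 16.4 for Hand1 and from 2.44 to 8.88 for Gata3. In HDAC1-E63R cells they went from 53.4 to 119 CPM for Krt18, from 13.2 to 24.7 for Krt7, from 2.86 to 29.0 for Hand1 and from 0.955 to 6.11 for Gata3. Ascl2 of the same list went the other way, from 17.4 to 7.80 CPM in HDAC1-Y48E, where its libraries did not overlap but it did not pass. In HDAC1-E63R cells it went from 17.8 (29.6 in untreated replicate 3) to 7.16 CPM. Tfap2c went from 59.5 to 54.1 CPM in HDAC1-Y48E and from 55.6 to 102 CPM in HDAC1-E63R. Eomes went from 7.21 to 15.0 CPM in HDAC1-Y48E and from 6.43 to 12.5 CPM in HDAC1-E63R. Cdx2 averaged at most 1.59 CPM, Elf5 at most 1.01 CPM and Tpbpa at most 0.064 CPM in any group.

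Summed fibroblast markers were 23.4 to 25.2 CPM in untreated and 35.9 to 41.9 CPM in OHT-treated HDAC1-WT cells, 12.9 to 18.9 and 48.6 to 56.5 CPM in HDAC1-E63R, and 23.0 to 27.2 and 81.7 to 94.3 CPM in HDAC1-Y48E. Col1a1 went from 2.84 to 16.0 CPM in HDAC1-E63R and from 3.67 to 30.9 CPM in HDAC1-Y48E, and Thy1 from 11.1 to 32.4 and from 19.4 to 51.8 CPM, while Lum and Dcn averaged at most 0.196 and 0.114 CPM in any group. Primitive endoderm markers summed to 232 to 243 and 211 to 257 CPM in HDAC1-WT, 78.6 to 158 and 217 to 230 CPM in HDAC1-E63R, and 252 to 278 and 287 to 310 CPM in HDAC1-Y48E, without and with OHT. In the same order neural markers summed to 83.6 to 85.8 and 85.8 to 109 CPM, 99.8 to 118 and 135 to 141 CPM, and 114 to 115 and 159 to 178 CPM. Mesendoderm markers summed to 28.4 to 41.0 and 32.7 to 42.6 CPM, 10.8 to 13.6 and 17.1 to 18.3 CPM, and 9.26 to 14.3 and 18.5 to 22.9 CPM. The 6 ESC markers summed to 3312 to 3384 and 3211 to 3521 CPM in HDAC1-WT, 2360 to 3269 and 1894 to 1956 CPM in HDAC1-E63R, and 2710 to 2733 and 1172 to 1226 CPM in HDAC1-Y48E. Untreated HDAC1-E63R replicate 3 had the lowest primitive endoderm and fibroblast sums of its group (78.6 and 12.9 CPM). It also had the highest ESC marker sum there (3269 CPM). The neural sum mixed directions. Of 6 neural markers, 1 was higher and 2 lower with OHT in HDAC1-E63R, and 3 were higher and 3 lower in HDAC1-Y48E. In HDAC1-Y48E cells Pax6 went from 11.4 to 2.09 CPM, Neurod1 from 12.8 to 2.70 and Sox1 from 12.7 to 5.10. Nes went from 26.6 to 60.6 CPM, Tubb3 from 41.3 to 69.2 and Map2 from 9.79 to 26.4. Of 8 primitive endoderm markers tested, 2 were higher and 0 lower in HDAC1-E63R, and 1 was higher and 1 lower in HDAC1-Y48E. In each mutant line 2 of 3 fibroblast markers tested and 1 of 4 mesendoderm markers tested were higher, and 0 were lower. These counts stand beside 14.3% of all genes in HDAC1-E63R and 30.9% in HDAC1-Y48E. Without untreated HDAC1-E63R replicate 3, 1 primitive endoderm marker was higher and 0 lower in that line, beside 18.5% of all genes. In that fit 1 neural marker was higher and 2 lower. Of 4 fibroblast and 5 mesendoderm markers tested there, 2 and 1 were higher and 0 lower. The part of these marker lists in the values of the 10 genes was not tested.

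For the 3 members with the largest change in HDAC1-Y48E cells, the genes with the most similar profile over the 18 libraries were found by the Pearson correlation of log2(CPM + 1) among 10733 genes, as a description, since libraries of a group share their treatment. For Tcl1 they were Gm17232 (r = 0.984), Lap3 (r = 0.978) and Gsta4 (r = 0.977). For Dppa3 they were Ppp2cb (r = 0.969), Anxa2 (r = 0.961) and Agpat5 (r = 0.957). For Tdgf1 they were Inhbb (r = 0.982), Csrp2 (r = 0.979) and the pseudogene Tdgf1-ps1 (r = 0.976), which is 98.8% identical to Tdgf1 over 512 aligned bases.

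Near-identical copies can share reads with a member, so the genome annotation was searched for transcripts at least 90% identical over at least 200 bases. Dppa5a had 10 such copies, Dppa2 6, Tdgf1 3, Dppa3 2, Dppa4 2, Zfp42 1 and L1td1 1, and Tcl1, Fbxo15 and Utf1 had 0. The counts of the copies were small beside those of the members: Gm9788 averaged 5.68% of the Dppa2 count, Gm14058 3.71% of Dppa4, Pigp 1.04% and Dppa5c 0.387% of Dppa5a, Dppa3-ps 0.0790% of Dppa3 and Tdgf1-ps1 6.41% of Tdgf1. Pigp is a protein-coding gene whose transcript is 95.9% identical to Dppa5a over 417 bases. Tdgf1-ps1 fell with OHT in HDAC1-Y48E cells as Tdgf1 did (-1.09, SE 0.13, adjusted p = 1.03e-06). The sequence of Dppa5c, 96.3% identical to Dppa5a, drew uneven reads, from 0.726 to 47.0 CPM among OHT-treated HDAC1-WT libraries, whose Dppa5a was 2406 to 2699 CPM. Adding the counts of pseudogene copies, which leaves out Pigp, to their member changed no count of members that passed. That sum does not cover Pigp, copies that were not counted or reads assigned to no gene. The values of these members remain uncertain to that extent.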

How the data were processed

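Total RNA was extracted and libraries were made with a NEBNext Ultra kit, per the labels. Per the labels and the submitters' processing notes, the authors aligned reads to mm10 with HISAT2 2.1.0, used SAMtools 1.9 and counted reads per gene with HTSeq, and they deposited whole-number counts for each of 18 libraries, with no normalization. The strand setting and annotation release are not given in the sources used here. The 5 entries that name no gene held 59.4% to 61.2% of each file's total and were left out.

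Counts were tested with edgeR 4.0.16 (R 4.3.3): TMM scaling, genes kept by expression within groups, one quasi-likelihood model over the 6 groups and Benjamini-Hochberg adjustment over 18791 genes. A gene passed at an adjusted p under 0.01. Printed levels are CPM on TMM-scaled library sizes. DESeq2 1.42.0, other scalings, filters, thresholds, single-comparison fits and leaving out each library were alternatives. The script was tested on simulated data. Positions, exon lengths and copies come from GENCODE (mm10), promoters from RefSeq. The members and lists were chosen with earlier results of these data known. All members are named; list genes are at most the 2 largest increases and 2 largest decreases that passed per OHT comparison, with groups that did not overlap and at least 1 CPM. Replicate numbers were not used as pairs: deviations of same-numbered libraries from their group means correlated at -0.231 to 0.175.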

Additional observations from a re-analysis of the deposited data

Results flagged for a closer look

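The response to OHT differed between lines, by a test of the difference itself, for Dppa3, Dppa5a, Tcl1, Zfp42, Utf1 and Tdgf1. In HDAC1-Y48E minus HDAC1-WT the log2 values were 1.80 for Dppa3, -1.07 for Dppa5a, -3.02 for Tcl1, -0.79 for Zfp42, -1.24 for Utf1 and -1.52 for Tdgf1. In HDAC1-E63R minus HDAC1-WT they were -1.17 for Tcl1 and -0.99 for Utf1, and in HDAC1-Y48E minus HDAC1-E63R they were 2.28 for Dppa3, -1.86 for Tcl1 and -0.98 for Tdgf1. The values that involve HDAC1-E63R rest on an untreated group in which replicate 3 stood apart. Without that library they were -0.92 for Tcl1 and -0.74 for Utf1 in HDAC1-E63R minus HDAC1-WT. In HDAC1-Y48E minus HDAC1-E63R they were then 1.83 for Dppa3, -2.11 for Tcl1 and -1.10 for Tdgf1. The Dppa5a call was lost without any one of its 12 libraries, in DESeq2 and with relative log expression scaling, at log2 values of -1.12 to -1.04. No rule for single outlying libraries was applied to the levels of single genes, since each group has 3 libraries.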

How the results depend on the processing

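Depth limits the lowest member, Dppa3, in HDAC1-WT cells most (at least 50 counts a library), and 3 libraries a group limit every call near the threshold. Of 1420 values of single members under the alternatives, 1289 kept direction and side of the threshold, 64 lost and 45 gained a call, and 22 changed sign, all among values that had not passed. The cause of these changes was not tested. Replicate numbers did not pair the libraries (6 of 18 correlated best with their own number), and with the replicate block the counts for the 10 comparisons, in the order OHT in HDAC1-WT, HDAC1-E63R, HDAC1-Y48E, untreated E63R and Y48E against WT, OHT-treated E63R and Y48E against WT, and the differences E63R minus WT, Y48E minus WT and Y48E minus E63R, were 0, 4, 6, 5, 5, 6, 10, 2, 6 and 3. In that order 6, 2469, 5604, 3002, 2151, 3424, 5798, 402, 2194 and 346 of all genes passed with the block.

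When only the libraries compared were fitted, the number of members past the threshold was 3 for OHT in HDAC1-WT, 1 for OHT in HDAC1-E63R, 3 and 9 for untreated E63R and Y48E against WT, and 0 for the difference E63R minus WT. In turn, 117, 453, 635, 3817 and 165 of all genes passed in those fits. With a 2-fold change also required, the number of members was 0 for OHT in HDAC1-E63R, 3 and 3 for untreated E63R and Y48E against WT, 6 for OHT-treated Y48E against WT and 1 for the difference E63R minus WT. Beside these stood 5.91%, 7.65%, 5.57%, 18.2% and 1.68% of all genes in turn. At an adjusted p limit of 0.05 it was 4 for the difference E63R minus WT and 5 for Y48E minus E63R. The share of all genes at that limit was not counted. For Y48E minus E63R the unfiltered table and DESeq2 also gave 5 members. In turn, 684 and 732 of all genes passed there, against 366 in the filtered edgeR fit over all libraries. Leaving out 1 library gave 2 to 6 for OHT in HDAC1-E63R, 3 to 7 for untreated E63R against WT, 0 to 4 for the difference E63R minus WT, 3 to 7 for Y48E minus E63R, 9 to 10 for OHT-treated Y48E against WT, 6 for OHT in HDAC1-Y48E and 5 for Y48E minus WT. In turn, 1658 to 3605, 2268 to 4006, 254 to 1273, 234 to 1453, 4868 to 4990, 4612 to 4666 and 1831 to 1969 of all genes passed. With only the libraries compared and untreated HDAC1-E63R replicate 3 left out, a setting chosen after seeing the data, the counts were 7 for OHT in HDAC1-E63R, 7 for untreated E63R against WT, 4 for E63R minus WT and 8 for Y48E minus E63R. In turn, 4289, 3717, 1159 and 1717 of all genes passed there, and 2688, 3170, 460 and 366 in the fit over all libraries.

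Leaving out 1 library turned the sign of 1 or more values that had not passed. The ranges over those fits, on the log2 scale, were as follows for the effect of OHT in HDAC1-WT: -0.028 to 0.24 for Dppa3, -0.12 to 0.066 for Dppa4 and -0.0762 to 0.0074 for Dppa5a. For OHT in HDAC1-E63R they were -0.57 to 0.058 for Dppa3 and -0.35 to 0.076 for Dppa4, and for OHT in HDAC1-Y48E -0.067 to 0.13 for L1td1. For untreated E63R against WT they were -0.67 to 0.036 for Dppa5a and -0.098 to 0.29 for Tcl1, and for OHT-treated E63R against WT -0.025 to 0.18 for L1td1. For the difference E63R minus WT they were -0.015 to 0.52 for Dppa2, -0.33 to 0.095 for Dppa4 and -0.017 to 0.31 for Fbxo15, for Y48E minus WT -0.15 to 0.033 for Dppa4, and for Y48E minus E63R -0.16 to 0.26 for Dppa4. In the setting chosen after seeing the data, Dppa3 was 0.054 and Dppa4 0.070 for OHT in HDAC1-E63R, Tcl1 was -0.095 for untreated E63R against WT, and Dppa4 was 0.095 for E63R minus WT and -0.17 for Y48E minus E63R.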
